A study of Homo sapiens with 3 samples.

Results

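The genes described here code for secreted signals of the transforming growth factor β (TGF-β) superfamily: TGFB1, TGFB2 and TGFB3, the activin subunits INHBA and INHBB, the bone morphogenetic proteins BMP2, BMP4, BMP6 and BMP7, and FST, the activin antagonist follistatin. They were listed by name, as members of 1 family, with earlier results of these data known. The RefSeq accession of each probe was matched to a symbol, and all 10 genes were found among the 19699 named genes of the array, on 12 of its 34041 probes. PANC-1, an established human pancreatic cancer cell line, was grown with no agent (control), with 20 µM cantharidin or with 20 µM okadaic acid, and total RNA of each group was hybridised to 1 Agilent 1-colour array. The treatments lasted 24 h. The okadaic acid dose is that of its sample label, since the shared treatment text can also be read as giving the dose for cantharidin alone. Cantharidin, a terpenoid of blister beetles, and okadaic acid, a polyether toxin of marine dinoflagellates, both inhibit the serine/threonine phosphatases PP2A and PP1. Each group had 1 array, so no spread between cultures was measured, no test was possible, and each difference below compares 3 RNA samples of 1 cell line. The labels name no vehicle for the control.

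Ligands of this superfamily are made as precursors, cut by proprotein convertases such as furin, and act as paired chains. They bind a type II and a type I receptor kinase at the cell surface; TGF-β and activin then act mainly through SMAD2 and SMAD3, the BMPs through SMAD1, SMAD5 and SMAD9, and both with the shared SMAD4. TGF-β is secreted in a latent form and restrains the growth of normal epithelium, and loss of this arm, often through SMAD4, is common in pancreatic cancer.

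The intensity of a probe is given in the arbitrary units of the scanner software, followed by the SD of its error model, which covers the spot and the background on 1 array and not the spread between cultures. For the probes printed at 10 places, those of TGFB1, INHBA and FST, this SD is the mean of the errors of single spots. It is not the error of their average. Differences are on the log2 scale after scaling by the 75th percentile of each array, which was 784 in the control, 713 with cantharidin and 936 with okadaic acid, so ratios of the printed intensities differ from the folds by that factor. A gene was compared where its brightest probe was well above background, by the software's flag, on at least 1 of the 2 arrays, and it was called at 1.5-fold. The limit of detection, taken as the lowest signal that met the flag, was 35.0 in the control, 21.9 with cantharidin and 58.0 with okadaic acid. The 7 markers chosen for a pancreatic epithelial cancer line were keratins, EPCAM, CDH1 and VIM, the last not particular to epithelium. VIM was the brightest of them on each array, at 311685, 304354 and 236756. All 7 were above background in the control and 6 with each agent. The exception was CDH1, the junction protein E-cadherin, at 167 in the control, 23.9 with cantharidin and 44.0 with okadaic acid. Leukocyte markers did not stay dark: all 5 met the flag on each array, and their summed intensity was 6258, 6440 and 24789 in the same order, with CD68 and CD14 accounting for most of it. Of 6 fibroblast markers 3, 3 and 2 met the flag, with sums of 743, 649 and 241, and the probe for INS, the islet hormone insulin, read 792, 618 and 765, so the flag by itself does not show that a gene is in use. In such bulk RNA a change in the share of cells that make a transcript and a change in the amount per cell cannot be told apart.

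Cantharidin left 1 of the 8 ligand genes that could be compared higher, BMP6, and 3 lower, INHBB, TGFB1 and TGFB2. Calls at this fold were common on these arrays: 27.5% of all 16644 genes compared were called higher with cantharidin and 34.1% lower. Okadaic acid left 2 of 8 higher, INHBA and BMP2, against 28.1% of all genes, and 3 lower, INHBB, TGFB1 and TGFB2, against 28.8%. The median difference of the 8 genes was -0.27 with cantharidin and 0.05 with okadaic acid, beside -0.16 and 0.01 over all genes compared. Both comparisons used the same control array, so they are not independent of each other. Without any scaling, 62.0% of the okadaic acid calls over all genes were in the higher direction in place of 49.4%. BMP4 and FST were above background on no array and were not compared.

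**Figure D1:**
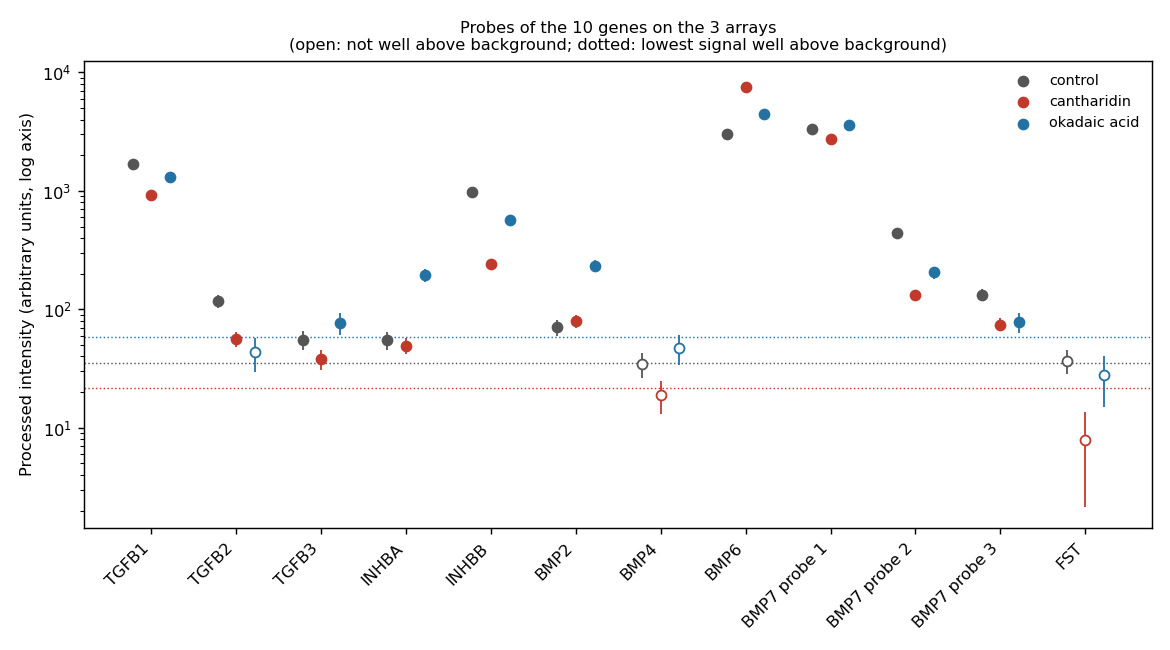
Processed intensity of each of the 12 probes of the 10 genes (log axis, arbitrary units) for the control and each agent, 1 array per group. Bars are the SD of the scanner software's error model. Open symbols mark probes not well above background, and dotted lines the lowest signal well above background on each array. BMP6 was highest with cantharidin, at 7519, INHBA and BMP2 were highest with okadaic acid, at 195 and 232, and INHBB was lowest with cantharidin, at 243.

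TGFB1 codes for the most widely expressed TGF-β. Its intensity was 1675 ± 168 in the control, 921 ± 92.4 with cantharidin and 1318 ± 132 with okadaic acid. The probe was printed at 10 places on each array, and these spots ran from 1572 to 1733 (median 1687) in the control, from 844 to 983 (median 924) with cantharidin and from 1249 to 1438 (median 1304) with okadaic acid. Before scaling, the control spots lay above all spots of either treated array, and those of okadaic acid lay between the other sets. After scaling, TGFB1 was 1.65-fold lower with cantharidin (-0.72 ± 0.20, log2 difference and its error by the error model). With okadaic acid it was 1.52-fold lower (-0.60 ± 0.20), just past the fold that counts as a call, and this call was lost under 6 of 10 alternatives, a 2-fold threshold among them, with -0.35 when the arrays were not scaled.

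TGFB2, whose protein is prominent in embryonic development, read 117 ± 14.3 in the control, 56.2 ± 8.05 with cantharidin and 43.8 ± 14.1 with okadaic acid, a signal the software did not place well above background. It was 1.89-fold lower with cantharidin (-0.92 ± 0.27), a call lost after normexp (-0.46). Against the okadaic acid array's own lower limit the difference was at least 2.41-fold lower than the control, with a measured value of -1.67 ± 0.50 that ran from -2.14 to -0.79 over the alternatives. TGFB2 was thus dimmest, relative to its array, in the okadaic acid sample, at a signal within a few multiples of the limit of detection on each array. TGFB3, the third isoform, was close to the limit too, at 55.1 ± 10.1, 37.8 ± 7.26 and 76.7 ± 15.98 in the control, cantharidin and okadaic acid samples. Its differences from the control, -0.41 ± 0.38 and 0.22 ± 0.40, did not reach 1.5-fold, and the second was smaller than its error.

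The windows of 250 bases before the start of TGFB1 and TGFB2 are shown because these genes, both lower in the treated samples, have promoters of different make-up. They are read 5′ to 3′ on the strand of the gene, from RefSeq on GRCh38.p14, at chr19:41353923-41354172 (minus strand) for TGFB1 and chr1:218345086-218345335 (plus strand) for TGFB2. Capitals mark, on either strand, the GC box GGGCGG, the CRE-like motif TGANGTCA, the AP-1 motif TGANTCA and the CRE half-site CGTCA, which also lies within the CRE-like motif where N is C. The E-box CACGTG, the TATA motif TATAAA and the κB motif were searched too and are left in lower case.
TGFB1: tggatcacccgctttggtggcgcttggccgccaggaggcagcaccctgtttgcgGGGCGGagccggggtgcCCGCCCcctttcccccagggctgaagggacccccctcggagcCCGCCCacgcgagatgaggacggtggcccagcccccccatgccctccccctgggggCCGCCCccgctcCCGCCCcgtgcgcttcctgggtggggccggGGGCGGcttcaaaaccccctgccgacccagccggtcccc
TGFB2: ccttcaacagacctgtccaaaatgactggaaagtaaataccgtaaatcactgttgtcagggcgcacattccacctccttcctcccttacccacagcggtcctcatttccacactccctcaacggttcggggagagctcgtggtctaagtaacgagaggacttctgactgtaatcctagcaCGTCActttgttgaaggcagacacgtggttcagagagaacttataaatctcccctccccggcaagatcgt
The TGFB1 window held 6 GC boxes and none of the other motifs, and 76.8% of its bases were G or C. In the TGFB2 window, at 50.4% G or C, there was no GC box. It held a CRE half-site, a TATA motif and an E-box starting 70, 29 and 49 bases before the start. Over all 35116 RefSeq promoter windows, whose median was 58% G or C, 42.6% held a GC box, 21.2% a CRE half-site, 10.7% a TATA motif and 6.34% an E-box. These matches are of letters and do not mark sites in use in PANC-1.

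The activin subunit genes were called in opposite directions with okadaic acid. INHBA codes for the βA chain of activin A. It read 55.2 ± 9.73 in the control, 49.4 ± 7.75 with cantharidin and 195 ± 23.4 with okadaic acid. Of its 10 spots, those of the control ran from 38.8 to 108 (median 54.0), those of cantharidin from 36.4 to 75.1 (median 50.9) and those of okadaic acid from 179 to 207 (median 196). Every okadaic acid spot was above every spot of the other arrays, while the control and cantharidin spots overlapped. INHBA was 2.95-fold higher with okadaic acid (1.56 ± 0.30), and differed by -0.02 ± 0.33 from the control with cantharidin, a value whose sign depended on the scaling. The control and cantharidin signals were 1.58 and 2.26 times those limits of their arrays, and the okadaic acid difference ran from 0.77, after another background correction (normexp), to 1.82, without scaling, over the alternatives. The leukocyte markers given above were brighter in the okadaic acid sample as well, and their part in the INHBA value was not tested.

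INHBB, which codes for the βB chain, lay farthest from the control on the 2 differences together among the members above background on all arrays. Its intensity was 984 ± 98.8 in the control, 243 ± 25.3 with cantharidin and 568 ± 59.0 with okadaic acid, well above background on each array. It was 3.68-fold lower with cantharidin (-1.88 ± 0.21) and 2.07-fold lower with okadaic acid (-1.05 ± 0.21). Over the alternatives the values ran from -2.02 to -1.49 and from -1.17 to -0.79. INHA codes for the α chain that pairs with a β chain to form inhibin, and read 135, 95.0 and 127, with differences of -0.37 and -0.34 that were not called.

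The windows of INHBA and INHBB are shown because the paralogues differed in direction with okadaic acid. INHBB lies at chr2:120345886-120346135 (plus strand) and INHBA at chr7:41703091-41703340 (minus strand). The INHBA window falls inside the RefSeq span of the gene, upstream of the start listed for the table's transcript. Capitals mark the same motifs as above.
INHBA: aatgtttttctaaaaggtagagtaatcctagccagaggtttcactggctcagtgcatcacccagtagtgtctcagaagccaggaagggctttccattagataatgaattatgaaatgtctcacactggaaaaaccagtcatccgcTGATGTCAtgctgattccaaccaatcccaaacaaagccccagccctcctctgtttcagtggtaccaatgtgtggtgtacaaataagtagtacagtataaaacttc
INHBB: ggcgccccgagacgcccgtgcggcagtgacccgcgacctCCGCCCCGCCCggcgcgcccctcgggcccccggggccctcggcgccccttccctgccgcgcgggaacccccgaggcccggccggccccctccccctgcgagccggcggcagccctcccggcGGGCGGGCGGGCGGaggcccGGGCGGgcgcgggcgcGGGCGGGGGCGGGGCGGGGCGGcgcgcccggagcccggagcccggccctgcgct
The INHBA window was 42.8% G or C, with no GC box, a CRE-like motif starting 105 bases before the start and a TATA motif 11 bases before it. A CRE-like motif was present in 6.87% of all windows. The INHBB window was 89.6% G or C and held 10 matches to the GC box, some sharing bases, together with a κB motif, which 5.21% of all windows hold. Neither held the AP-1 motif, which is in 6.57% of all windows.

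**Figure D2:**
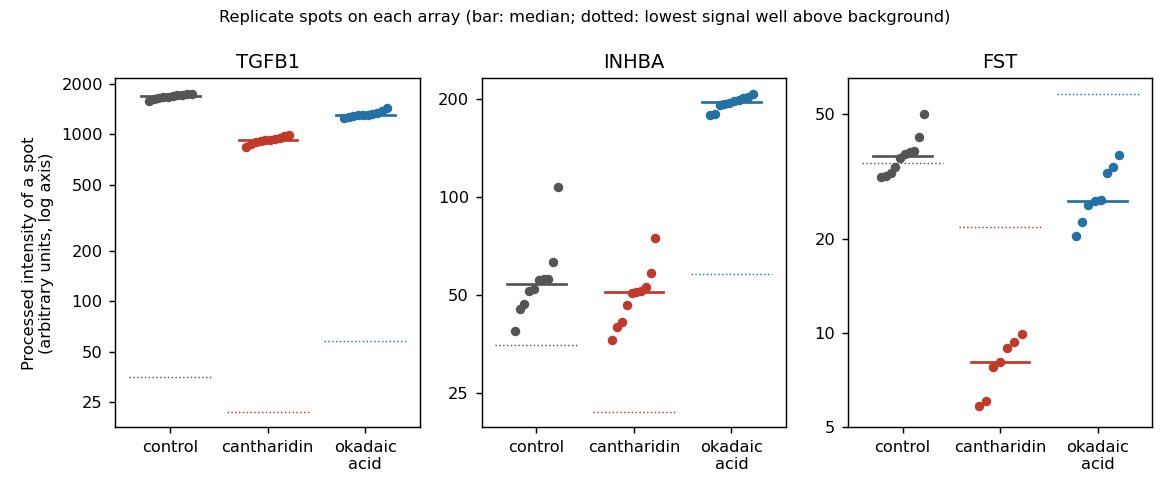
Processed intensity of each unflagged spot (log axis, arbitrary units) of the TGFB1, INHBA and FST probes on each array, in order of intensity within an array; horizontal bars are medians and dotted lines the lowest signal well above background on that array. The okadaic acid spots of INHBA, 179 to 207, lay above all others, the 3 sets of TGFB1 spots did not overlap in these unscaled values, and the FST spots of both treated arrays lay below the dotted line.

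FST codes for follistatin, which binds activin and keeps it from its receptors. Its probe read 36.8 in the control, 7.86 with cantharidin and 27.6 with okadaic acid and was not well above background on any of them. Of the 10 control spots 4 met the flag, against 0 of 7 unflagged spots with cantharidin and 0 of 8 with okadaic acid. A level of FST could therefore not be given for any of the 3 samples.

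Among the BMP genes, BMP6 and BMP2 stood apart from their controls under different agents. BMP6, known for its part in iron metabolism and bone formation, read 3032 ± 303 in the control, 7519 ± 752 with cantharidin and 4434 ± 444 with okadaic acid. It was 2.73-fold higher with cantharidin (1.45 ± 0.20), with a range of 1.31 to 1.52 over the alternatives, and 1.22-fold higher with okadaic acid (0.29 ± 0.20), which was not a call. BMP2, a strong inducer of bone and cartilage, read 70.9 ± 11.1, 80.1 ± 10.0 and 232 ± 27.0 in the same order. It was 2.74-fold higher with okadaic acid (1.45 ± 0.28, range 0.78 to 1.71) and differed by 0.31 ± 0.29 with cantharidin. The intensities of BMP2 in the control and cantharidin samples were 2.03 and 3.66 times the limit of detection, whereas BMP6 was bright on each array.

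The window of BMP6, at chr6:7725849-7726098 (plus strand), is shown as that of the ligand gene called higher with cantharidin.
BMP6: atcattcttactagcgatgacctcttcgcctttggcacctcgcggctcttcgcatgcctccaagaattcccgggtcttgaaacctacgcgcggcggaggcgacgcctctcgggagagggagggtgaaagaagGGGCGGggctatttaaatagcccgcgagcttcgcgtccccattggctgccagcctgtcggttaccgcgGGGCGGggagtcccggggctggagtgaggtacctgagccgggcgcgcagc
It was 64.4% G or C and held 2 GC boxes and a κB motif that started 46 bases before the start. BMP2 and BMP7 are not in the promoter table. Windows for 8 of the 10 genes, 11 in all, were searched.

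BMP7, a ligand with roles in kidney and bone, was the gene with more than 1 probe, and its 3 probes, all assigned to 1 RefSeq transcript, disagreed. The brightest read 3303 ± 330 in the control, 2741 ± 274 with cantharidin and 3614 ± 362 with okadaic acid, and differed from the control by -0.13 ± 0.20 with each agent, though the okadaic acid value was 0.13 without scaling and the cantharidin value 0.02 after normexp. The second read 438 ± 44.5, 131 ± 14.2 and 205 ± 23.9, and was 3.04-fold lower with cantharidin (-1.60 ± 0.21) and 2.55-fold lower with okadaic acid (-1.35 ± 0.22). The third read 132 ± 15.4, 74.4 ± 9.43 and 78.1 ± 15.1, with differences of -0.69 ± 0.25 and -1.01 ± 0.33. BMP7 was therefore not called by its brightest probe. It would be called lower, at -1.60 and -1.35, if the gene were given the median probe level on each array, which on every array was that of the second probe. BMP4, which patterns the early embryo, read 34.3, 19.0 and 47.6 and was not well above background in any sample.

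**Figure D3:**
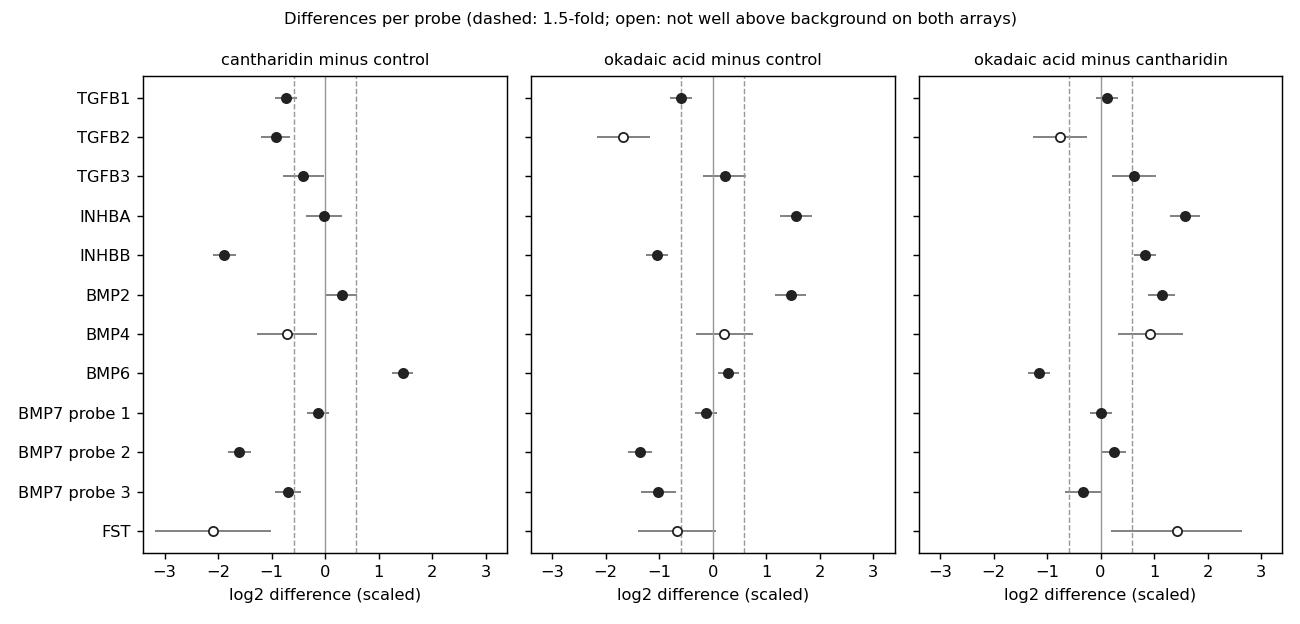
Log2 difference, after scaling to the 75th percentile, of each of the 12 probes of the 10 genes. Panels show cantharidin minus control, okadaic acid minus control and okadaic acid minus cantharidin. Bars are the error by the scanner software's error model and the dashed lines mark 1.5-fold. Open symbols mark probes not well above background on both arrays. INHBB, TGFB1 and TGFB2 lay below the lower line with each agent, BMP6 above the upper line with cantharidin, at 1.45, and INHBA and BMP2 above it with okadaic acid, at 1.56 and 1.45.

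The treated arrays were also set directly against each other, at the dose and time that the sample labels give for both. Okadaic acid exceeded cantharidin by at least 1.5-fold for 4 of the 8 genes, INHBA, BMP2, INHBB and TGFB3, against 29.5% of all 16200 genes compared, and was below it for 2, BMP6 and TGFB2, against 22.3%. INHBA was 3.00-fold higher (1.58 ± 0.28), BMP2 2.20-fold higher (1.14 ± 0.25) and INHBB 1.78-fold higher (0.83 ± 0.21). After normexp the BMP2 and INHBB values were 0.55 and 0.58, which are no calls. BMP6 was 2.23-fold lower (-1.16 ± 0.20). TGFB3 was 1.55-fold higher (0.63 ± 0.41), a call lost under 5 of 10 alternatives, a 2-fold threshold among them, and TGFB2, dim in both samples, differed by -0.75 ± 0.51 and by at least 1.27-fold against the okadaic acid array's limit. TGFB1 differed by 0.12 ± 0.20. Without scaling, 77.2% of the calls over all genes favoured okadaic acid in place of 56.9%.

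The genes that receive and relay these signals were examined as 8 lists with 118 genes in all. Of the 100 that could be compared for cantharidin, 21 were called higher and 42 lower, with a median of -0.39. Of 96 compared for okadaic acid, 26 were called higher and 29 lower, with a median of -0.07. As counts, these stand beside the 27.5% and 34.1% of all genes with cantharidin and the 28.1% and 28.8% with okadaic acid given above. The same shares apply to the counts of each list below. Over all genes compared, the median was -0.16 with cantharidin and 0.01 with okadaic acid.

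Of the receptor kinases, 4 of 9 were called higher and 3 lower with cantharidin, and 3 of 8 each way with okadaic acid. The only named probe of TGFBR1, the type I receptor of TGF-β, was above background on no array (26.9, 19.3 and 17.1). A probe that misses the flag does not show that its gene is silent. TGFBR2, its type II partner, read 1347, 2152 and 1615 and was 1.76-fold higher with cantharidin (0.81), with a difference of 0.01 with okadaic acid. The activin type II receptors ACVR2A and ACVR2B were 1.90-fold and 2.40-fold higher with okadaic acid, and ACVR2B differed by 0.46 with cantharidin. ACVR1B, the main type I receptor of activin, read 61.4 in the control and fell under the background flag in the treated samples, at least 2.55-fold lower with cantharidin and at least 1.26-fold lower with okadaic acid. The BMP receptor BMPR1A read 907, 162 and 634 by its brightest probe, a difference of -2.35 with cantharidin and -0.77 with okadaic acid. Its other probes read 214 and 178 in the control and were below background with okadaic acid, at least 3.81-fold and at least 3.66-fold lower. With cantharidin they were at least 6.06-fold and 5.11-fold lower. BMPR2, the type II partner of BMPR1A, went from 80.3 to below background, at least 3.33-fold lower with cantharidin and at least 1.65-fold with okadaic acid. ACVR1 was 1.74 higher on the log2 scale with cantharidin, and AMHR2, the receptor of the anti-Müllerian hormone, read 70.5, 2571 and 1140, differences of 5.33 and 3.76.

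Among 6 co-receptors, BAMBI, a receptor-like protein without a kinase that blocks signalling, read 83.8, 977 and 1945, which was 12.8-fold higher with cantharidin and 19.4-fold higher with okadaic acid. The endothelial co-receptor ENG differed by -1.47 and -1.17. In the list of latency and processing genes, 7 of 13 were called lower and 2 higher with cantharidin, and 6 of 14 lower and 3 higher with okadaic acid. FURIN, the convertase that cuts the TGF-β precursor, read 273, 90.6 and 40.1. It was 2.74-fold lower with cantharidin and, below background with okadaic acid, at least 5.61-fold lower there. LTBP1, which tethers latent TGF-β to the matrix, differed by -2.60 with cantharidin and by -0.57 with okadaic acid by its brightest probe. A second LTBP1 probe, above background on each array (1306, 123 and 471), differed by -3.27 and -1.73, past 1.5-fold with both agents. ITGB8, a chain of an integrin that frees latent TGF-β, was at least 6.22-fold lower with cantharidin and differed by -0.98 with okadaic acid.

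Secreted antagonists were called lower for 8 of 15 genes and higher for 0 with cantharidin, against 34.1% and 27.5% of all genes. Their median of -0.82 became -0.16 after normexp background correction. With okadaic acid 5 of 14 were called lower and 1 higher, and the median of -0.23 became 0.01 with dim signals at the array limit and 0.03 without scaling. NOG, the BMP antagonist noggin, read 254, 45.7 and 132, which was 5.05-fold and 2.29-fold lower. FSTL1 differed by -2.56 and -2.72, while FSTL3, a relative of follistatin that binds activin, read 731, 575 and 941 and was not called with either agent (-0.21 and 0.11). GREM1 was near its limit in the control (50.5) and below it in the treated samples.

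SMADs and their regulators were called higher for 4 and lower for 6 of 15 genes with cantharidin, and for 3 each way of 14 with okadaic acid. SMAD3 read 15852, 1388 and 6989, which was 10.4-fold lower with cantharidin and 2.71-fold lower with okadaic acid, and SMAD2 differed by -1.80 and -1.14. The shared partner SMAD4 went the other way with cantharidin, 2.23-fold higher (1.16), with 0.45 for okadaic acid. The inhibitory SMAD7 read 963, 375 and 1017, and SMAD6, which restrains BMP signals, read 981, 103 and 2008. Cantharidin thus left both inhibitory SMADs lower, by 2.33-fold and 8.64-fold, while with okadaic acid SMAD7 differed by -0.18 and SMAD6 was 1.71-fold higher.

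Target genes were mixed. Of 17 known targets of TGF-β and activin, 5 were called higher and 9 lower with cantharidin (median -0.74), and 6 higher and 7 lower with okadaic acid (median 0.17). TGFBI, a secreted matrix protein, read 77095, 10065 and 19451, while SNAI1, a repressor of E-cadherin, read 5049, 9865 and 33115. Of the BMP targets, 4 of 15 were called higher and 7 lower with cantharidin (median -0.53), and 7 of 14 higher and 4 lower with okadaic acid (median 0.30, but 0.02 after normexp and -0.08 with no filter on dim probes). The ID genes, whose proteins block basic helix-loop-helix factors, did not move as a set. ID1 read 64250, 7831 and 27256, which was 7.45-fold and 2.81-fold lower. ID2 read 611, 3303 and 38889, differences of 2.57 and 5.74 on the log2 scale, and ID3 differed by -1.22 and 0.93. The homeobox gene MSX1 was 25.1-fold higher with okadaic acid, and UNC5B, a netrin receptor, 8.65-fold higher with cantharidin.

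**Figure D4:**
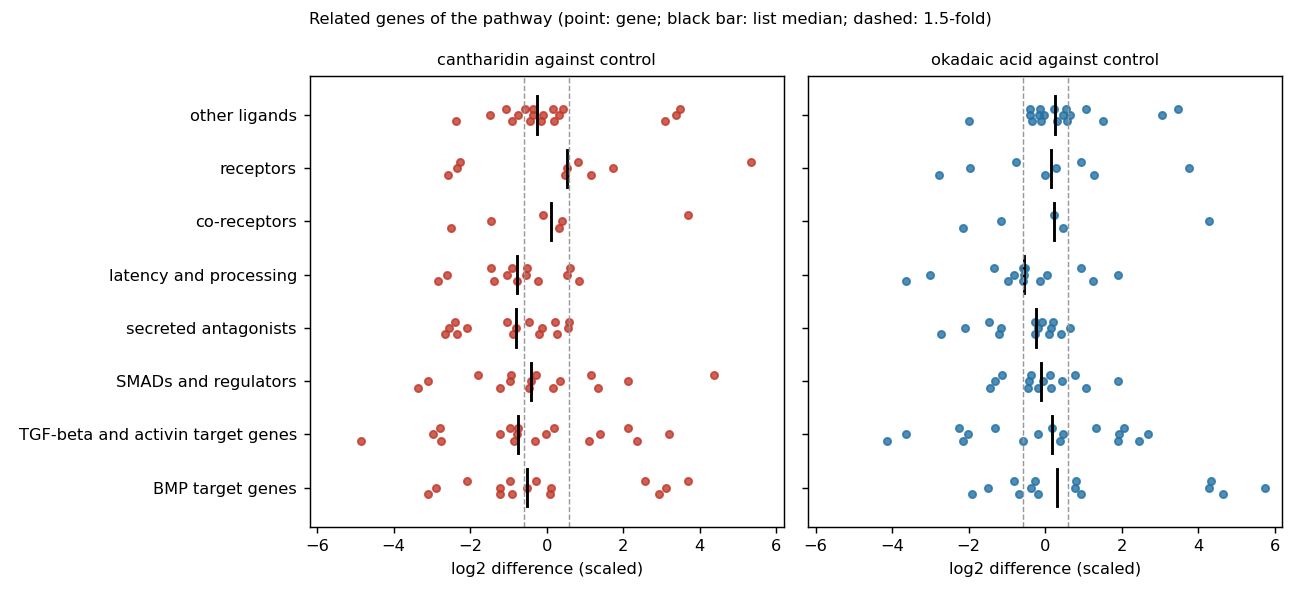
Log2 difference from the control of each gene compared in the 8 related lists, with cantharidin and with okadaic acid, 1 point per gene; black bars are list medians and dashed lines mark 1.5-fold. The list median of the secreted antagonists was -0.82 with cantharidin and -0.23 with okadaic acid, and that of the BMP target genes -0.53 and 0.30; both okadaic acid medians changed sign under some alternatives.

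The genes nearest to INHBB, INHBA and BMP2, the members farthest from the control among those above background on all arrays (TGFB2, below background with okadaic acid, was left out), were found by the distance between pairs of log2 differences (cantharidin and okadaic acid, each against the control), over 3 arrays and 14222 genes above background on all of them. For INHBB these were DAB2IP, MISP and JADE2, at distances of 0.026, 0.028 and 0.036. For INHBA they were SPINK7, CDKN2A and STIM2 (0.019, 0.030 and 0.032), and for BMP2 they were BCLAF1, CTNNBL1 and TCEAL9 (0.034, 0.047 and 0.048). A pair of values is a thin description of a pattern, since each member had 287 or more genes within a distance of 0.5.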

How the data were processed

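The authors hybridised Cy3-labelled total RNA to 3 Agilent 1-colour arrays and, per the file headers, read them with Feature Extraction 11.0.1.1, with probe annotation on hg19. The deposited intensity values are its processed signals, already background-subtracted and not scaled between arrays. The deposited flags (codes of 0 or 1, not a score) mark spots well above background, saturated spots and outliers, and its error model gave the error of each signal in intensity units. By the headers, the arrays lay on 1 slide and were read in 1 scan, so place on the slide and group cannot be told apart. The authors also deposited a table of 30923 normalised log2 values, whose normalisation is not given in the sources used here. Each of its columns correlated best with its own array (r of at least 0.998 over 30845 probes, against at most 0.937 with another), and it was used as an alternative.

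Control spots and outlier spots were left out, spots of a probe were averaged, and log2 intensity was scaled to the 75th percentile of each array (Python 3.11.15, numpy 2.4.6, pandas 2.3.3). Accessions were named through a RefSeq table of GRCh38.p14, which gave 25705 of 34041 probes a symbol, and a gene was represented by its brightest probe. No probe was saturated. Probes with 10 usable spots had a median SD of 0.062, 0.091 and 0.068 (log2) in the control, cantharidin and okadaic acid samples. A bound compares the brighter signal with the limit of detection on the other array (its lowest signal that met the flag), or with the dim probe's own signal where that is higher. With 1 array per group no test was run, so precision is limited by the number of arrays. The counting was tested on simulated data.

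The members and lists were chosen with earlier results of these data known. Named related genes had to be among the 2 with the largest rise or fall of their list under an agent, past 1.5-fold and above background on both arrays, or be partners of a member. Not every gene that meets this rule is reported here, and ID3, GDF9 and GDF15, which do not meet it, were chosen after their values were seen. Likeness was taken for the 3 members farthest from the control among those above background on all 3 arrays. The 11 alternatives were other scalings (none, median, 75th percentile of detected probes, quantile), normexp on the median spot signal (limma 3.58.1 in R 4.3.3, offset 50), no filter, detection on all 3 arrays, dim signals at the array limit, the deposited table, 2-fold, and the median over probes.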

Additional observations from a re-analysis of the deposited data

How the results depend on the processing

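The differences of the 8 members compared, 24 in all over 3 comparisons, gave 240 values under the alternatives. Of these, 217 kept their side of the threshold, 21 kept the direction but not the call and 2 became calls (BMP7 by the median over its probes). No called value changed sign, and 10 uncalled ones, of INHBA with cantharidin, of TGFB1 between the agents and of BMP7, did, to values between -0.15 and 0.13. With cantharidin the members called lower were 3, but 5 with no filter on dim probes, which added BMP4 and FST, and 1 at 2-fold. Between okadaic acid and cantharidin, the 2 members called lower became 1 without scaling, after normexp, with detection on all 3 arrays, with dim signals at the array limit and at 2-fold, and the 4 called higher became 1 after normexp and 2 at 2-fold. Of the related genes, the 36 called higher in that comparison became 21 after normexp and 20 at 2-fold, and the 10 called lower became 6 with detection on all 3 arrays and 17 in the deposited table. The 29 related genes called lower with okadaic acid against the control became 18 with detection on all 3 arrays. Over all genes, the 4781 higher and 3616 lower calls of okadaic acid against cantharidin became 7629 and 2254 without scaling, 7181 and 3835 with no filter, 3154 and 3003 after normexp, and 2676 and 2198 at 2-fold. At 2-fold the 5676 lower calls with cantharidin became 3707 and the 4656 with okadaic acid became 3067. The choice of scaling moved the median of all genes from -0.30 to -0.09 with cantharidin, from -0.11 to 0.26 with okadaic acid and from -0.02 to 0.52 between the agents. The cause of these changes was not tested. No paired analysis was possible because each group had 1 array, and for that reason no array could be left out. Signal over background limited TGFB2, TGFB3, INHBA and BMP2, and gave no level for BMP4 and FST.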

Other observations

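Other ligands of the superfamily, outside the 10 genes above, included larger differences. Of 18 compared, 3 were called higher and 5 lower with cantharidin (median -0.25), and 5 higher and 1 lower with okadaic acid (median 0.27, which ran from -0.06 to 0.52 over the alternatives). AMH, the anti-Müllerian hormone, read 113 in the control, 1147 with cantharidin and 186 with okadaic acid, which was 11.1-fold higher with cantharidin and a difference of 0.45 with okadaic acid. BMP8B, a ligand linked to heat production in brown fat, read 2007, 15561 and 26443 by its brightest probe, 8.53-fold higher with cantharidin and 3.46 higher on the log2 scale with okadaic acid, but a second, dim probe differed by 0.18 and 0.51 only.

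Some ligands were called in opposite directions with the 2 agents, a difference that was not tested. GDF11, a relative of myostatin, read 524, 172 and 1304, which was 2.77-fold lower with cantharidin and 2.08-fold higher with okadaic acid. BMP5 read 401, 173 and 1376, 2.11-fold lower and 2.87-fold higher. GDF1, which pairs with Nodal in the early embryo, read 1049, 182 and 318 and was 5.22-fold and 3.94-fold lower. GDF9, best known from the oocyte, was below background in the control (13.9) and read 132 and 137 in the treated samples, higher by at least 4.17-fold with cantharidin and at least 3.27-fold with okadaic acid. GDF15, a ligand raised by many kinds of cell stress, was bright in every sample (205455, 111154 and 228931) with a log2 difference of -0.75 with cantharidin and -0.10 with okadaic acid.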
